A study of Malus domestica with 9 samples.

Results

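Leucoanthocyanidin reductase (LAR) and anthocyanidin reductase (ANR) open the proanthocyanidin branch of the flavonoid pathway, and 4 apple loci of these enzymes were followed in fruit peel over the first day of light after bag removal. The loci were chosen by enzyme and identifier, with no rule on their levels: gene:MD16G1048500 and gene:MD13G1046900 for LAR, and gene:MD10G1311100 and gene:MD05G1335600 for ANR. They are 4 of the 46558 genes in the deposited table. Each carries its chromosome in its identifier, so the LAR copies lie on chromosomes 16 and 13 and the ANR copies on chromosomes 10 and 5, which are homeologous pairs left by the genome duplication in the ancestry of apple. The enzyme names come with the choice of the loci. The table itself gives identifiers only, and 0 of these occur in the RefSeq gene table for apple (51804 genes, assembly GDT2T_hap1), which has a gene LAR1 on chromosome 16 and a gene LAR2 on chromosome 13. Peel came from apple fruit (Malus domestica) that had grown in bags and then stood in light for 0 h, 6 h or 24 h after the bags were removed, with 3 libraries at each time, called biological replicates by the submitters. Whether the replicates came from separate fruit or trees, or from pools of fruit, is not stated in the labels. The p-values therefore speak only of the spread between libraries, which may be partly technical. No fruit kept in its bag was sampled at 6 h or 24 h, so light and bag removal, and at 6 h also time of day, cannot be told apart. RNA came from bulk peel, in which fewer cells of a type cannot be told apart from less RNA per cell.

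Proanthocyanidins, the condensed tannins, are polymers of flavan-3-ols and give fruit astringency. LAR reduces leucoanthocyanidin to catechin, and ANR reduces anthocyanidin to epicatechin. Both enzymes use intermediates that the anthocyanin branch also needs: leucoanthocyanidin is the substrate of anthocyanidin synthase, and anthocyanidin becomes the red anthocyanin of coloured peel once a glycosyltransferase has added a sugar. The series title places these samples in the period when the peel turns from green to red.

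Levels are the authors' deposited FPKM, that is, sequenced fragments scaled to transcript length in kilobases and to a library denominator in M (mega). That denominator was not the summed reads of the library but followed median-of-ratios size factors to within 0.442%. The 9 libraries held 15.3 to 19.5 M reads in genes, worked out from the steps of the FPKM values. The third 24 h library stood apart: its residual spread over all tested genes was 0.328 log2 units, against 0.123 to 0.195 in the other libraries, and its reads in genes were 1.21 times the denominator of its FPKM, against 0.911 to 1.03 times in the others. Tests on 24 h are therefore given with and without it. Changes were tested with limma on log2(FPKM + 1) over the 25362 genes that averaged 1 FPKM or more, a filter that all 4 loci passed. A gene was said to rise or fall, and was called, where its log2 difference was at least 1 in size and its p, adjusted after Benjamini-Hochberg across the tested genes, was under 0.05.

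The LAR copy on chromosome 16, MD16G1048500, rose over the day and was the highest of the 4 loci at 24 h. It stood at 38.6, 53.5 and 42.6 FPKM in the 0 h libraries, at 53.4, 58.5 and 59.1 FPKM in the 6 h libraries and at 114, 103 and 126 FPKM in the 24 h libraries. All 24 h libraries lay above all others, while the lowest 6 h library lay within the range of the 0 h libraries. Its mean of 114 ± 11.2 FPKM at 24 h was 2.55 times the mean of 44.9 ± 7.68 FPKM at 0 h (SD, n = 3 each). The log2 difference was 1.34 (SE 0.124, 95% interval 1.06 to 1.61, limma adjusted p = 8.23e-06), and 91.8% of the tested genes had a lower one. Without the third 24 h library it was 1.27 (limma adjusted p = 5.03e-06). At 24 h this copy had a higher mean level than 95.8% of the tested genes, and at 0 h than 90.4%. The values rest on 1206 to 3507 reads per library.

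At 6 h the chromosome 16 copy had not risen by the rule for a call. The mean at 6 h was 57.0 ± 3.14 FPKM (SD, n = 3), and the log2 difference of 6 h against 0 h was 0.35 (SE 0.124, limma adjusted p = 0.0371), under the size needed for a call. After quantile normalization it was 0.20 (limma adjusted p = 0.133). Between 24 h and 6 h the log2 difference was 0.99 (95% interval 0.71 to 1.26, limma adjusted p = 8.55e-05), just short of the size limit. It was 0.92 (limma adjusted p = 6.99e-05) without the third 24 h library. It passed the limit, at 1.06, without the second 24 h library, and at 1.01 and 1.02 without the second and the third 6 h library.

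The LAR copy on chromosome 13, MD13G1046900, took another course and was the lowest of the 4 loci at every time. Its levels were 2.42, 1.95 and 1.89 FPKM at 0 h, 4.20, 3.49 and 3.01 FPKM at 6 h, and 1.35, 0.703 and 0.880 FPKM at 24 h. The 3 times did not overlap: the 6 h libraries were the highest and the 24 h libraries the lowest. At 24 h it averaged 0.979 ± 0.336 FPKM, against 3.56 ± 0.598 FPKM at 6 h (SD, n = 3 each). This fall had a log2 difference of -1.21 (SE 0.160, 95% interval -1.57 to -0.86, limma adjusted p = 0.000126), and 5.58% of the tested genes had a lower one. Without the third 24 h library the log2 difference was -1.18 (limma adjusted p = 0.000189). With a pseudocount of 5 in place of 1, which shrinks the differences of low genes, it was -0.52 and not a call. With a pseudocount of 0.1 it was -1.80 (limma adjusted p = 0.00023). It was -1.88 when limma-voom was run on recovered reads (adjusted p = 0.000139). Only 80 reads of this copy were found in the 24 h libraries together, 20 to 37 in each, against 309 at 6 h and 181 at 0 h.

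Against 0 h, where its mean was 2.09 ± 0.292 FPKM (SD, n = 3), the chromosome 13 copy was not called at either light time. At 6 h the log2 difference was 0.56 (95% interval 0.21 to 0.92, limma adjusted p = 0.0140), and 0.27 with a pseudocount of 5 (limma adjusted p = 0.00691). With a pseudocount of 0.1 it was 0.74 (limma adjusted p = 0.0322). At 24 h it was -0.65 (95% interval -1.01 to -0.29, limma adjusted p = 0.00571). Both passed the adjusted p and missed the size limit. Without the third 24 h library the value at 24 h was -0.62 (limma adjusted p = 0.00947). It depends on how low values are treated, with log2 differences of -1.05 at a pseudocount of 0.1 (limma adjusted p = 0.00516) and -1.13 when limma-voom was run on recovered reads (adjusted p = 0.00617), both past the limit. With a pseudocount of 5 it was -0.25 (limma adjusted p = 0.0104).

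**Figure D1:**
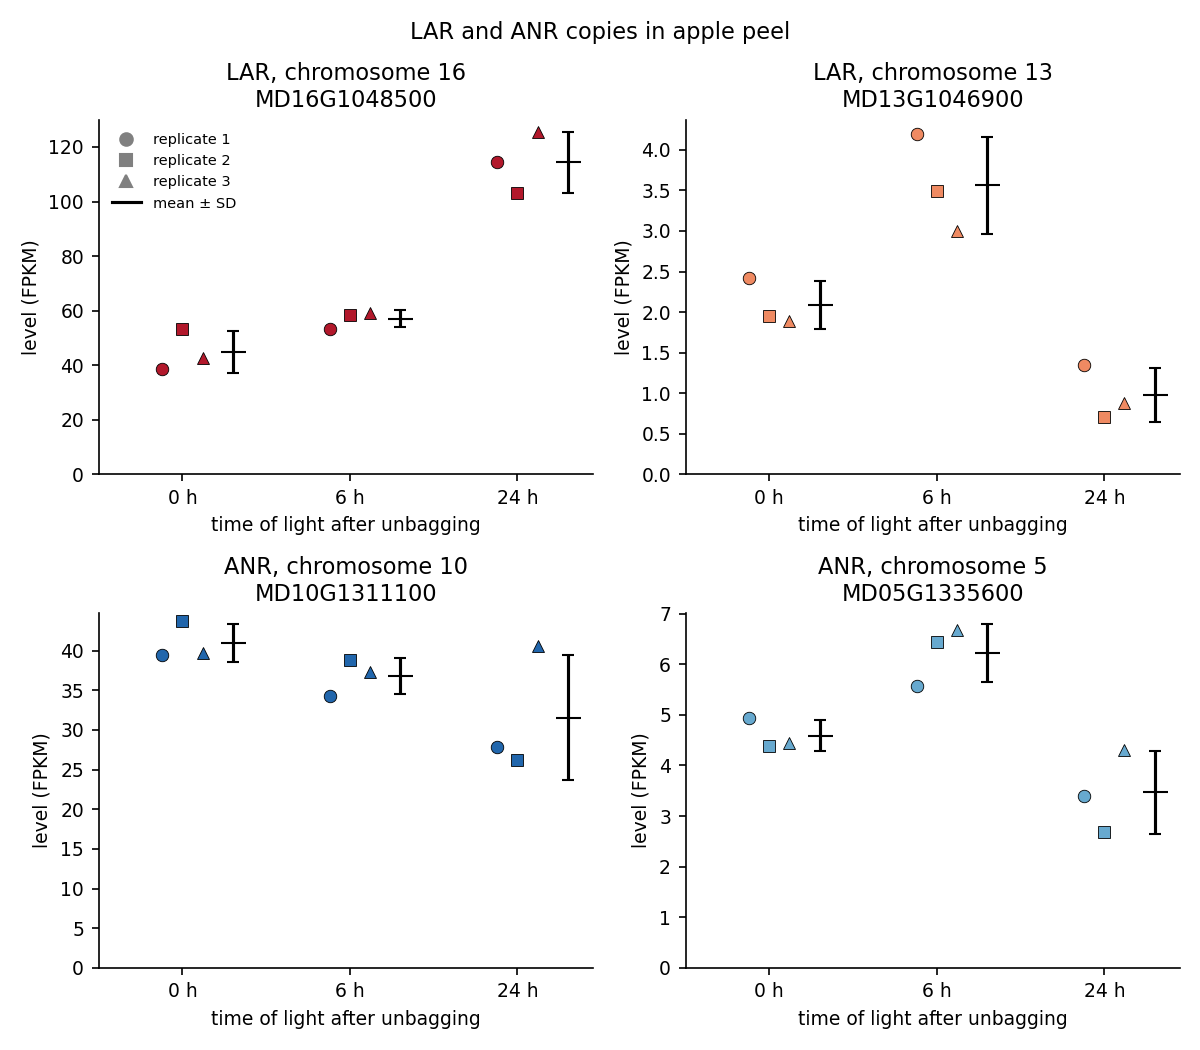
FPKM (vertical axes, each from 0) of the 4 loci at 0 h, 6 h and 24 h of light. Each marker is 1 library, its shape the replicate number, and the bars are mean ± SD of 3 libraries. The chromosome 16 LAR copy is highest at 24 h, at 103 to 126 FPKM, while the chromosome 13 copy is lowest then, at 0.703 to 1.35 FPKM, and the third 24 h library is the highest 24 h library of both ANR copies.

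The LAR copies were set against each other within each library, where a scale factor common to the library drops out apart from the pseudocount. FPKM are per length, with 1729 bases for the chromosome 16 copy and 1618 bases for the chromosome 13 copy in the authors' values, so the levels can be divided. The chromosome 16 copy was 15.9, 27.4 and 22.6 times as high as the chromosome 13 copy at 0 h, 12.7, 16.7 and 19.7 times at 6 h, and 84.6, 147 and 143 times at 24 h. The 24 h ratios lay above all others, and those of 0 h and 6 h overlapped. Counting error alone gave exact 95% intervals of 61.3 to 120 for the lowest 24 h ratio and 21.2 to 36.1 for the highest ratio of the earlier times, which do not meet. The chromosome 13 copy made up 4.55 ± 1.22% of the summed LAR level at 0 h, 5.92 ± 1.25% in the 6 h libraries and 0.847 ± 0.278% in the 24 h libraries (SD, n = 3 each).

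The difference between the LAR copies changed over the 3 times by an exact permutation test of the log2(FPKM + 1) difference, with p = 0.0143, and 0.025 after Benjamini-Hochberg adjustment over the 2 copy pairs. Without the third 24 h library the exact p was also 0.0143. The mean log2 difference of chromosome 16 minus chromosome 13 was 3.89 at 0 h, 3.67 at 6 h and 5.87 at 24 h. The copies' changes thus differed by 1.99 log2 units for 24 h against 0 h and by 2.20 for 24 h against 6 h. The size of that last value depends on the pseudocount: it was 1.46 with a pseudocount of 5, 2.80 with 0.1 and 2.91 with none, at exact p of 0.0286, 0.0107 and 0.0107 over the 3 times. Single comparisons of 3 libraries against 3 cannot give an exact two-sided p under 0.1, and both reached it. At 6 h against 0 h the copies' changes differed by -0.21 log2 units, with overlapping libraries (exact p = 0.4). The authors' way of dividing reads between similar copies is not given in the sources used here, so the level of the lower copy is the less certain one.

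**Figure D2:**
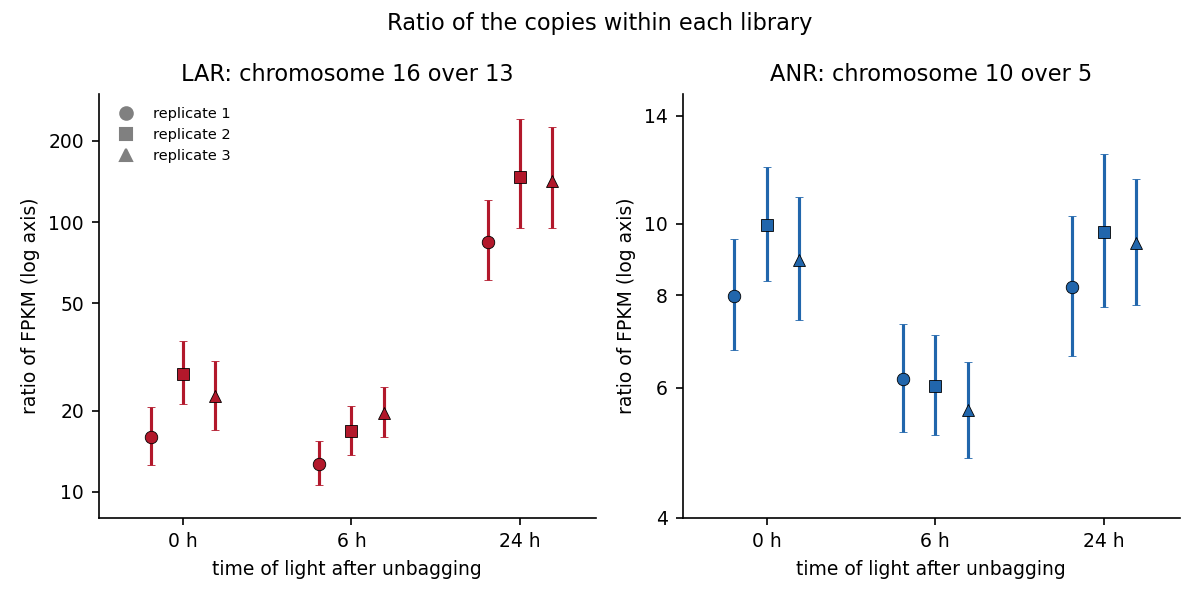
Ratio of the FPKM of the copies within each library (log axes), chromosome 16 over 13 for LAR on the left and chromosome 10 over 5 for ANR on the right, at 0 h, 6 h and 24 h. Each marker is 1 library, and its bar is the exact 95% interval for counting error. The LAR ratio is highest at 24 h, at 84.6 to 147, and the ANR ratio is lowest at 6 h, at 5.59 to 6.17.

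The ANR copy on chromosome 10, MD10G1311100, was not called in any of the 3 comparisons. Its levels were 39.5, 43.7 and 39.7 FPKM at 0 h, 34.3, 38.8 and 37.3 FPKM at 6 h, and 27.9, 26.2 and 40.6 FPKM at 24 h. The third 24 h library lay within the 0 h range, and the other two 24 h libraries were the lowest of the 9. The mean at 24 h was 31.6 ± 7.87 FPKM, against 41.0 ± 2.40 FPKM at 0 h (SD, n = 3 each). The log2 difference was -0.39 (95% interval -0.71 to -0.07, limma adjusted p = 0.0388), under the size limit. Without the third 24 h library the log2 difference was -0.58 (limma adjusted p = 6.06e-05), still under that limit. After quantile normalization of all 9 libraries it was -0.70 (limma adjusted p = 0.000286), and on the scale of summed reads -0.60 (limma adjusted p = 0.000559). Its mean level was above that of 89.4% of the tested genes at 0 h and of 82.2% at 24 h.

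At 6 h the chromosome 10 copy averaged 36.8 ± 2.28 FPKM (SD, n = 3), with every 6 h library under every 0 h library by a narrow gap. Its log2 difference of 6 h against 0 h was -0.15 (95% interval -0.47 to 0.17, limma adjusted p = 0.411), and -0.31 after quantile normalization (limma adjusted p = 0.0356). For 24 h against 6 h it was -0.24 (95% interval -0.56 to 0.08, limma adjusted p = 0.191), and -0.43 (limma adjusted p = 0.000626) without the third 24 h library. With all libraries, quantile normalization gave -0.39 (limma adjusted p = 0.0123) and summed reads also gave -0.39 (limma adjusted p = 0.00902). Neither comparison reached the size of a call with or without that library.

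The ANR copy on chromosome 5, MD05G1335600, was a minor transcript with its highest levels at 6 h. It stood at 4.95, 4.39 and 4.44 FPKM at 0 h, at 5.56, 6.43 and 6.67 FPKM at 6 h, and at 3.40, 2.69 and 4.31 FPKM at 24 h. The times did not overlap, although the third 24 h library came close to the 0 h libraries. The log2 difference of 24 h against 6 h was -0.71 (SE 0.141, 95% interval -1.02 to -0.39, limma adjusted p = 0.00202), and -0.84 (limma adjusted p = 0.000141) without the third 24 h library. The means were 3.47 ± 0.814 FPKM at 24 h, against 6.22 ± 0.582 FPKM at 6 h (SD, n = 3 each). The size limit was not reached in either case, and the difference was -0.41 with a pseudocount of 5 (limma adjusted p = 0.00145). With a pseudocount of 0.1 it was -0.85 (limma adjusted p = 0.00262). By limma-voom on recovered reads it was -0.87 (adjusted p = 0.00125), also short of the limit.

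Against 0 h, where its mean was 4.59 ± 0.307 FPKM (SD, n = 3), the chromosome 5 copy missed the adjusted p narrowly at both light times. The log2 difference was 0.37 at 6 h (95% interval 0.05 to 0.68, limma adjusted p = 0.0510) and -0.34 at 24 h (95% interval -0.65 to -0.02, limma adjusted p = 0.0612). Without the third 24 h library, which takes part in the shared estimate of the spread, these adjusted p were 0.0108 and 0.00522 by limma. With a pseudocount of 5 the log2 differences were 0.23 and -0.18 (limma adjusted p = 0.0338 and 0.0661). With a pseudocount of 0.1 they were 0.43 and -0.42 (limma adjusted p = 0.0639 and 0.0614). The values rest on 78 to 206 reads per library.

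The ratio of the mean at 24 h to that at 0 h was 0.770 for the ANR copy on chromosome 10 and 0.755 for the one on chromosome 5, neither of them a call. These ratios were 0.660 and 0.663 without the third 24 h library. The copies differed most in their course at 6 h. The chromosome 10 copy was 7.99, 9.96 and 8.94 times as high as the chromosome 5 copy at 0 h, 6.17, 6.03 and 5.59 times at 6 h, and 8.20, 9.73 and 9.41 times at 24 h. The 6 h ratios lay under all others, and the 0 h and 24 h ratios overlapped. For counting error alone, the exact 95% interval of the highest 6 h ratio was 5.23 to 7.32. That interval met those of the lowest 0 h ratio, 6.74 to 9.53, and of the lowest 24 h ratio, 6.63 to 10.2. The third 24 h library, which stood apart in the level of each copy, lay between the other 24 h libraries in their ratio of FPKM. In the log2(FPKM + 1) difference, which was the value tested, it was the highest of the 24 h libraries, at 2.97 against 2.71 and 2.88. The mean log2(FPKM + 1) difference of chromosome 10 minus chromosome 5 was 2.91 at 0 h, 2.39 at 6 h and 2.85 at 24 h, and it changed over the 3 times at an exact permutation p of 0.025 (0.025 adjusted over the 2 copy pairs), and of 0.0143 without the third 24 h library. The copies' changes differed by -0.52 log2 units at 6 h against 0 h, and by -0.05 at 24 h against 0 h (exact p = 0.1 and 0.7). The chromosome 5 copy made up 10.1 ± 1.002% of the summed ANR level at 0 h, 14.4 ± 0.646% in the 6 h libraries and 9.93 ± 0.827% in the 24 h libraries (SD, n = 3 each).

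The counts of calls are read against those over all tested genes. At 6 h against 0 h limma called 0 of the 4 loci, beside 15.5% of the tested genes. By limma 3 of the 4 were at an unadjusted p under 0.05, as were 56.9% of the tested genes. Limma-voom on the recovered reads also called 0 of the 4, beside 5085 of the 25362 tested genes. At 24 h against 0 h 1 of the 4 was called, the chromosome 16 LAR copy, which was higher. The share of all tested genes called was 19.8%, and the share called higher was 11.9%. At 24 h against 6 h 1 of the 4 was called, the chromosome 13 LAR copy, which was lower, against 16.5% of the tested genes in either direction and 7.79% called lower. Without the size limit 2 of the 4 passed at 6 h against 0 h, beside 51.1% of the tested genes, and 3 passed in each comparison with 24 h on top, beside 59% (against 0 h) and 49.7% (against 6 h). In each comparison the libraries did not overlap between the times for 3 of the 4 loci. This held for 68.6% of the tested genes in the first comparison, 64.2% for 24 h against 0 h, and 59.3% in the comparison of the light times. With 4 loci, none of these counts sets them apart from the other genes. By limma's moderated F-test over the 3 times, 3 of the 4 passed an adjusted p under 0.05, as did 72.7% of the tested genes. The exception was the chromosome 10 ANR copy (limma adjusted p = 0.0795), and without the third 24 h library all 4 passed, as did 79.6% of the tested genes. The 4 loci had a median log2 difference of 0.36 for 6 h against 0 h, while all tested genes had 0.01. For 24 h against 0 h the medians were -0.36 in the 4 loci and 0.00391 in all tested genes. For 24 h against 6 h they were -0.47 and -0.00543. Medians of all tested genes are held near 0 by the deposited scale, whose denominators followed median-of-ratios size factors. For 24 h against 0 h the single values of the 4 loci ran from -0.65 to 1.34, which their median does not show. The comparisons with 0 h share the 0 h libraries.

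**Figure D3:**
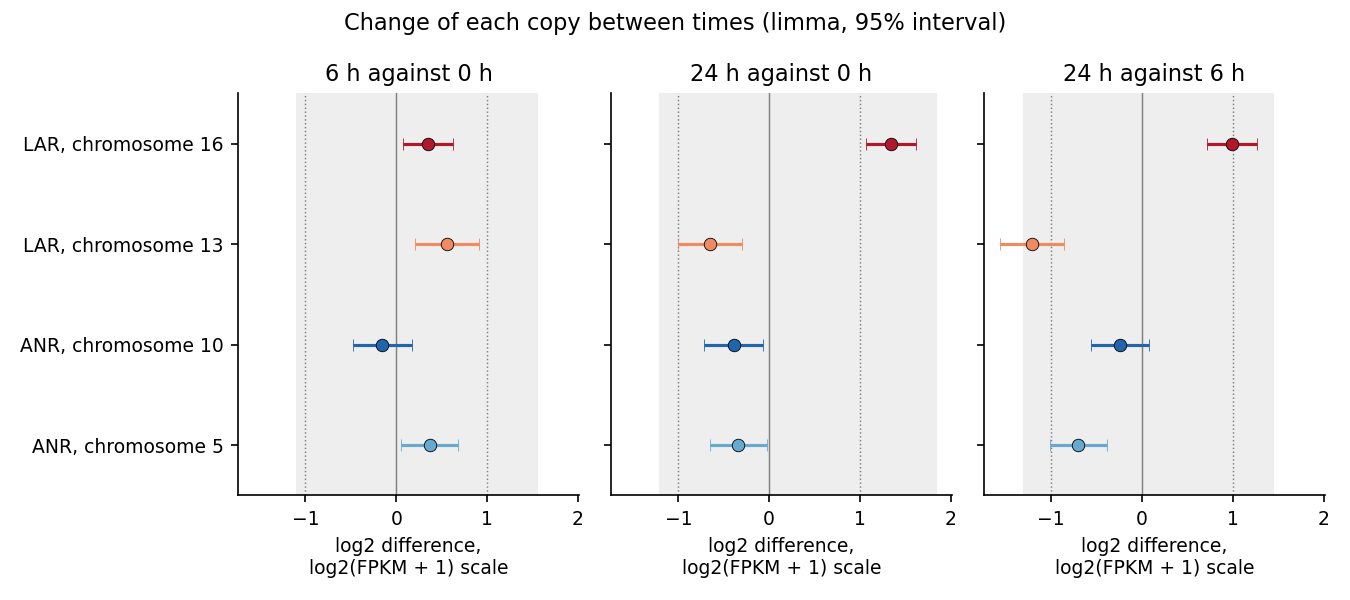
Log2 differences on the log2(FPKM + 1) scale (horizontal axes) of the 4 loci in each comparison of 2 times. Points are limma estimates with 95% intervals, dotted lines mark the size limit of 1 in either direction, and the grey band holds the middle 90% of all tested genes. The LAR copies lie on opposite sides of 0 in both comparisons with 24 h on top, at 1.34 and -0.65 against 0 h and at 0.99 and -1.21 against 6 h.

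Changes against 24 h depended in size on the scale. With each library divided by its summed reads, the median log2 difference over the tested genes was -0.18 for 24 h against 0 h and -0.13 between the light times, where the deposited scale had 0.00391 and -0.00543. On that scale the log2 differences at 24 h against 0 h were 1.12 for the chromosome 16 and -0.77 for the chromosome 13 LAR copy, and -0.60 for the chromosome 10 and -0.51 for the chromosome 5 ANR copy (limma adjusted p = 1e-05, 0.00307, 0.000559 and 0.00605). No locus changed its direction in any comparison on that scale or after quantile normalization.

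The adjusted p of the larger differences stayed under 0.05 in every alternative fit that tested the locus, and those of the smaller ones did not. For the chromosome 16 LAR copy it ran over these fits from 3.86e-06 to 0.000106 for 24 h against 0 h, and from 4.6e-05 to 0.000742 between the light times. For the chromosome 13 copy the ranges were 0.00278 to 0.0261 and 9.39e-05 to 0.000884 in the same comparisons. The chromosome 5 ANR copy had 0.000141 to 0.0115 between the light times and 0.00522 to 0.213 for 24 h against 0 h. The chromosome 10 copy had 0.000626 to 0.507 between the light times and 6.06e-05 to 0.135 for 24 h against 0 h, where leaving out any library but the third 24 h library put it above 0.05. At 6 h against 0 h the adjusted p crossed 0.05 for each locus, with ranges of 0.00728 to 0.140 and 0.00691 to 0.0585 for the LAR copies on chromosomes 16 and 13, and of 0.0356 to 0.654 and 0.0108 to 0.150 for the ANR copies on chromosomes 10 and 5.

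The means of the 4 loci had the same order at every time, with the chromosome 16 LAR copy first. At 0 h the chromosome 16 LAR copy and the chromosome 10 ANR copy overlapped, at 38.6 to 53.5 and 39.5 to 43.7 FPKM. At 6 h every library had more of the LAR copy, at 53.4 to 59.1 against 34.3 to 38.8 FPKM, and at 24 h the gap was wider still, at 103 to 126 against 26.2 to 40.6 FPKM. The chromosome 5 ANR copy came next at every time, and the chromosome 13 LAR copy was last, with no overlap between these neighbours at any time. Summed over both copies, LAR averaged 47.0 ± 7.50 FPKM in the 0 h libraries, 60.6 ± 2.58 FPKM in the 6 h libraries and 115 ± 11.3 FPKM in the 24 h libraries (SD, n = 3 each). ANR averaged 45.6 ± 2.23, 43.0 ± 2.79 and 35.0 ± 8.64 FPKM at the same times (SD, n = 3 each). The 24 h means were 109.8 FPKM for LAR and 30.1 FPKM for ANR without the third 24 h library. The ratio of summed LAR to summed ANR was 0.923, 1.15 and 1.01 at 0 h, 1.44, 1.37 and 1.41 at 6 h, and 3.70, 3.60 and 2.82 at 24 h. The times did not overlap in this ratio, and the third 24 h library had the lowest of the 24 h values. No test was made on these sums, which were formed after the levels were known.

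**Figure D4:**
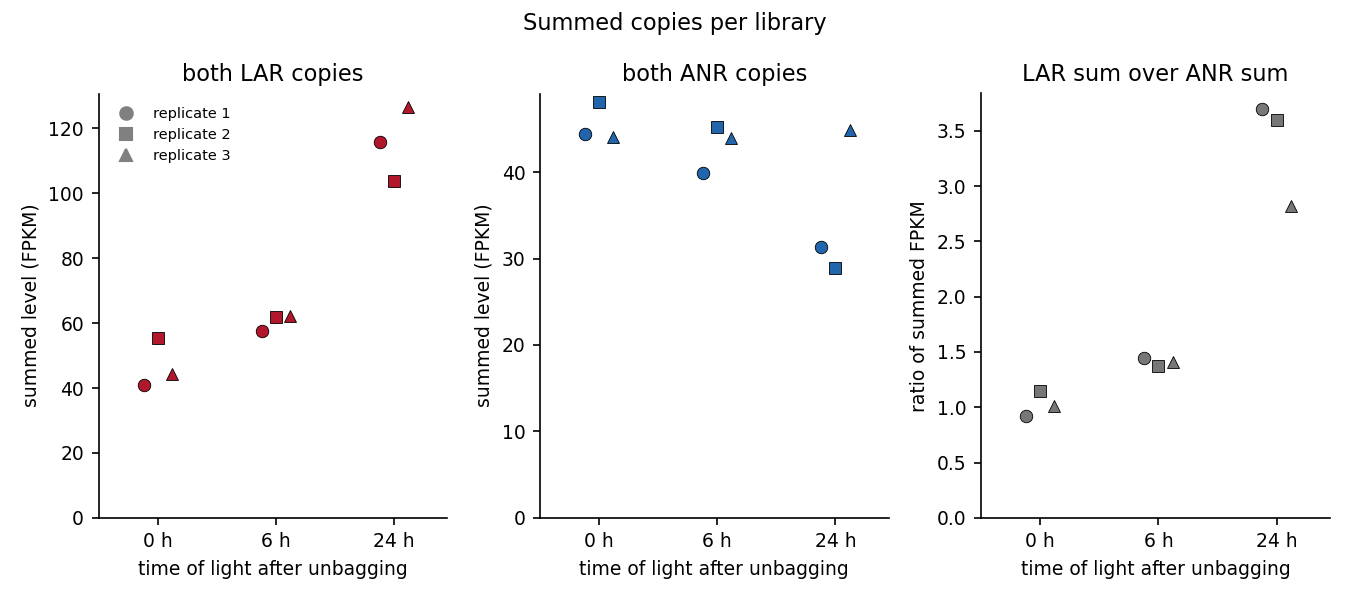
Summed FPKM of both LAR copies (left) and both ANR copies (middle), and the ratio of these sums (right), in each library at 0 h, 6 h and 24 h; all vertical axes start at 0 and marker shapes give the replicate number. The ratio is 0.923 to 1.15 at 0 h, 1.37 to 1.44 at 6 h and 2.82 to 3.70 at 24 h.

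Likeness of profiles was measured as the root mean square difference of the log2(FPKM + 1) values over the 9 libraries, after subtraction of each gene's mean. It includes the third 24 h library, which stood apart, and was not worked out without it. A deviation shared in that library therefore adds to likeness. Neither copy was closest to its homeologue among all tested genes. The LAR copies differed by 1.02 log2 units, and 86.0% of the other tested genes were closer to the chromosome 16 copy than the chromosome 13 copy was. The ANR copies differed by 0.25 log2 units, with 6.15% of the other genes closer to the chromosome 5 copy and 13.7% closer to the chromosome 10 copy. The profile of the chromosome 13 LAR copy was nearer to the chromosome 5 ANR copy, at 0.29 log2 units, with 2.22% of the other genes closer. The genes with the most similar profiles were MD11G1250000 for the chromosome 16 LAR copy (0.10 log2 units), MD15G1052100 for the chromosome 13 LAR copy (0.13), MD06G1124200 for the chromosome 10 ANR copy (0.05) and MD14G1226200 for the chromosome 5 ANR copy (0.08). These 4 identifiers are not paired with names. MD11G1250000 stood at 8.30 ± 0.777, 9.79 ± 0.498 and 22.0 ± 1.41 FPKM at 0 h, 6 h and 24 h (SD, n = 3 each). MD06G1124200 stood at 37.9 ± 0.188, 34.7 ± 2.47 and 30.5 ± 7.74 FPKM (SD, n = 3 each), with the same wide spread at 24 h as the ANR copy.

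Loci next in number to the 4 copies, 5 on either side of each, were counted by comparison. Of these 40 loci 24 were tested, and 5 of the 24 (20.8%) were called at 6 h against 0 h, beside 15.5% of all tested genes. For 24 h against 0 h 5 of 24 were called as well, beside 19.8%. Between the light times limma called 0 of 24, beside 16.5%, with 13 of the 24 at an unadjusted p under 0.05, beside 56% of all tested genes. Limma-voom called 1 of the 24 there, beside 5333 of all 25362 tested genes.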

How the data were processed

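RNA was sequenced from 9 libraries of apple peel, 3 at each time. Per the labels' protocols, Trizol was used for extraction of total RNA, and mRNA libraries followed Illumina procedures. The authors deposited FPKM per gene. HISAT2 and Cufflinks are listed by the submitters' processing notes. Their versions, the build, the annotation and strandedness are not given in the sources used. Whole reads were recovered from the FPKM steps for all 37142 genes above 0 and rebuilt the deposited FPKM to a relative difference of 6.82e-08. The authors' denominators followed median-of-ratios size factors to within 0.442%. The values do not tell reads from read pairs.

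FPKM are not counts, so limma 3.58.1 in R 4.3.3 was fitted to log2(FPKM + 1) of the whole table, with a mean per time, a variance trend and 6 residual degrees of freedom. The pseudocount makes differences of low genes smaller. Copies were compared by exact permutation over all 1680 assignments of libraries to times (Python 3.11.15), with 0.00357 as the smallest p it can give. Intervals on ratios are exact Clopper-Pearson intervals on reads and cover counting error only. The fit and the recovery were tested on simulated data. For the fit, changes were planted at 6 h only and all libraries had the same spread setting. That simulation therefore does not cover a library with a wider spread, such as the third 24 h library.

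The members, lists and rules were chosen with earlier results of these data known. The rule named the 4 loci and, for each, the 1 gene with the most similar profile, while neighbouring loci were counted, apart from 1 named in the closing observations after its values were seen. Alternatives were other pseudocounts, filters, scalings and tools, a replicate block and leaving out each library. Other pathway genes were not analysed here, since 0 identifiers matched a table of names. No block was used, since the series' design text gives times and biological replicates and no other covariate. Samples with the same replicate number did not deviate together.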

Additional observations from a re-analysis of the deposited data

Results flagged for a closer look

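For 3 of the 4 loci the change against 0 h differed between the light times. The test was that of 24 h against 6 h, at a limma adjusted p under 0.05, which 49.7% of all tested genes passed. The log2 differences were 0.99 for MD16G1048500 (limma adjusted p = 8.55e-05), -1.21 for MD13G1046900 (limma adjusted p = 0.000126) and -0.71 for MD05G1335600 (limma adjusted p = 0.00202). In MD16G1048500 and MD05G1335600 the size was under 1. The 24 h libraries of each of these loci lay entirely on one side of the 6 h libraries.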

How the results depend on the processing

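The log2 differences of the 4 loci in the 3 comparisons kept their direction in all 222 values over the alternatives, and 208 of these stayed on the same side of a call. Many of the 222 values could not change direction. The filters, the variance trend, the replicate block and dropping the size limit leave a log2 difference as it was. So does leaving out a library of the time outside the comparison. The count of called loci at 24 h against 0 h (1) was 2 with a pseudocount of 0.1 and 2 by limma-voom. Of the 25362 tested genes these settings called 6466 and 6627, against 5014 as reported. At 24 h against 6 h the count (1) was 2 under both of these settings and 0 with a pseudocount of 5. Over all tested genes the calls there were 5222, 5333 and 2398, against 4173 as reported. The filter at 5 FPKM also gave 0 loci there, beside 3075 of the 17404 genes it tested. It removes MD13G1046900 and MD05G1335600 and leaves 1 locus passing the F-test, beside 77.8% of those 17404 genes. With the adjusted p alone, 2 loci passed for 6 h against 0 h and 3 in each comparison with 24 h on top. When each library was left out in turn, 0 loci were called at 6 h against 0 h. The count was 1 for 24 h against 0 h, 1 to 2 between the light times, and 3 to 4 by the F-test. Of the 25362 tested genes, these fits called 3890 to 3989, 4619 to 5378 and 3938 to 4485 in the same 3 comparisons. By the F-test 66.1% to 79.6% of the tested genes passed. The F-test count was 4 after quantile normalization, where 76.2% of all tested genes passed, and with summed reads as the denominator, where 74.2% did.

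Same-numbered libraries of different times did not deviate together (r = -0.0627 to 0.0762 across genes, 9 pairs). Libraries with different numbers had r of -0.0971 to 0.0949 (18 pairs). With the replicate block, 0, 1 and 1 loci were called and 3 passed the F-test, as without it. Over all tested genes the block fit called 3941, 5019 and 4175, and 70.9% passed the F-test. With times permuted within replicate numbers, the LAR copy difference had an exact p of 0.0278, the smallest that test can give. The ANR copy difference, -0.52 log2 units at 6 h against 0 h, had an exact p of 0.0833 and no longer passed. Leaving out 1 library gave changes of 2.06 to 2.33 log2 units for LAR at 24 h against 6 h and -0.59 to -0.45 for ANR at 6 h against 0 h. Over all genes, the calls numbered 3939, 5014 and 4173 in the 3 comparisons. A pseudocount of 5 gave 2046, 2697 and 2398, and dropping the size limit gave 12954, 14958 and 12605. Depth limits MD13G1046900 most, with 20 to 37 reads per library at 24 h.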

Other observations

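The locus that precedes the chromosome 10 ANR copy in number, MD10G1311000, was singled out after its values were seen. It is not paired with a name. It stood at 0.395, 0.457 and 0.4999 FPKM at 0 h, at 64.1, 152 and 91.3 FPKM at 6 h, and at 96.4, 85.7 and 85.7 FPKM at 24 h, with 47 reads in the 0 h libraries together against 10738 at 6 h and 8832 at 24 h. The ANR copy beside it stayed between 26.2 and 43.7 FPKM in all 9 libraries.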
